A study of Danio rerio with 6 samples.

Results

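The transcripts described here were those raised in zebrafish larvae that lack phosphatidylinositol synthase, the product of cdipt. They were chosen by their values: a probe set counted as raised where the mean of the 3 mutant arrays exceeded that of the 3 wild type arrays by at least 0.5 and the lowest mutant array lay above the highest wild type array. Of 15502 probe sets, 103 met this rule, which is 0.664%. By gene annotation, 75 of them carried 1 gene symbol and together named 69 genes, 3 were annotated to several genes and 25 to none. Because the rule used the mutant and wild type values, the differences below are descriptions of the chosen transcripts and not tests of them.

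Both groups came from crosses between heterozygous carriers of the allele cdipt hi559Tg, an insertional mutation. Larvae were taken at 5 days post fertilisation and sorted by phenotype. Total RNA from pools of 25 whole larvae was hybridised to 1 array per pool, 3 of mutant and 3 of wild type larvae. The wild type pools were sorted by appearance, so heterozygous carriers were not separated from siblings without the allele.

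Levels are scores in array SDs, counted from the median of the array, so that 0 is its middle value and 1 is the SD over all its rows. Where 3 levels are given for a group, they are those of pools 1, 2 and 3 in that order. They order the same probe set between arrays and do not give transcript abundance, and a difference cannot be converted to a fold change. In whole-larva RNA, more cells of a type and more RNA per cell cannot be told apart. Whether pools shared parents or clutches is not stated, so the spread between them may be in part technical.

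The probe set for cdipt served as a check of the sorting. Its level was -1.20, -1.15 and -0.978 in the mutant pools and 0.408, 0.388 and 0.244 in the wild type pools. The mutant mean differed by -1.46 (SE 0.0722) with a limma adjusted p = 4.89e-05, and no mutant array overlapped a wild type array. The arrays numbered 3 stood somewhat apart in both groups, and values without them are given where they matter.

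Phosphatidylinositol is the precursor of the phosphoinositides, lipids that mark membranes and carry signals, and it is made in the endoplasmic reticulum. When folding in that compartment fails, cells raise its chaperones through the unfolded protein response. Inflammatory signals through NF-kB and STAT3 raise a different set: proteases and enzymes of immune cells, feedback inhibitors such as the SOCS proteins, and the acute phase proteins that the liver secretes into plasma, among them fibrinogen and complement. Members of all these groups were among the raised transcripts.

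The raised transcripts covered most of the range of signal. Their differences ran from 0.502 to 1.84 array SDs with a median of 0.663, against a median of -0.00703 over all probe sets. The differences were at least 1 for 14 of them, or 0.0903% of all probe sets, from 0.75 to 1 for 25 and under 0.75 for 64. In wild type arrays they averaged between the 6.94th and the 95.5th percentile of signal, with a median at the 54.3rd, and in mutants the median was at the 83.7th. On average 43 of them lay below the array median in wild type and 14 in mutants.

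**Figure D1:**
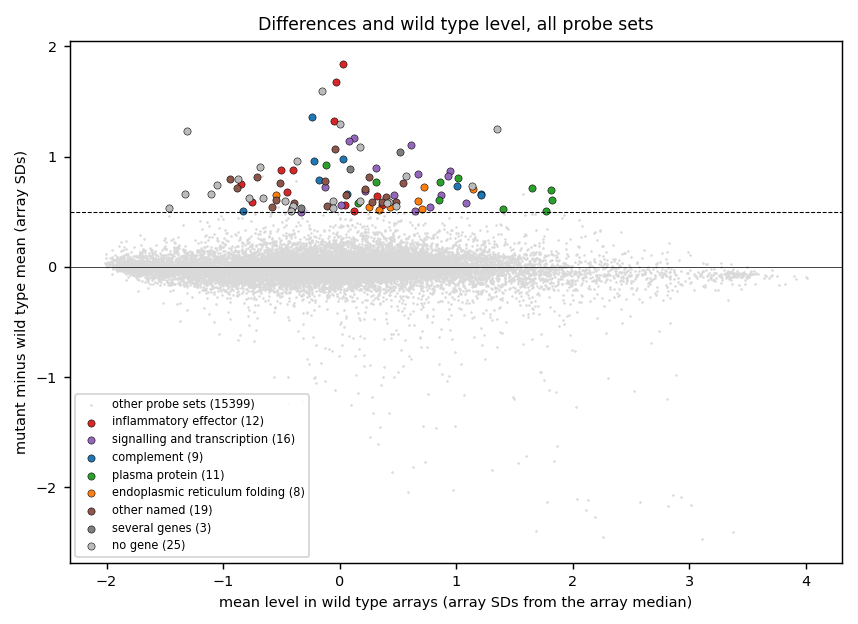
Each point is 1 probe set, with its mean level in the 3 wild type arrays on the horizontal axis and the mutant minus wild type mean on the vertical axis, both in array SDs. Coloured points are the 103 raised probe sets by role, grey points the others, and the dashed line marks 0.5. The raised probe sets spread from dim to bright signal, and the plasma proteins sit mostly among the brighter ones.

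In limma's test over all 15502 probe sets, 1.23% were higher in mutants at an adjusted p of 0.05, and 76 of the 103 raised transcripts were among them. With replicate number as a block, 2.33% were higher, and the count was 95 of 103. Groups in which every mutant array lay above every wild type array made up 11.3% of all probe sets. The rule used the same contrast, so these counts carry no support of their own.

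At the edge of the rule, irf9, which pairs with STAT proteins in interferon signalling, was the last probe set inside, with a difference of 0.502. The second probe set of jun and tnfaip6, a hyaluronan-binding protein of inflamed tissue, lay just inside at 0.506 and 0.505. Just below 0.5 were tnfrsf1a, a receptor for tumour necrosis factor, at 0.4996, sptlc2b, a subunit of the enzyme that starts sphingolipid synthesis, at 0.4987, and a second probe set of igfbp1a at 0.4981. In all 0.703% of probe sets had a difference of 0.5 or more, and 6 of these had overlapping groups. The highest of them was saa, serum amyloid A, whose level was -0.324, -0.4996 and 1.296 in the mutant pools and -0.750, -0.796 and -0.457 in the wild type pools. Mutant 2 thus lay below wild type 3, and mutant 3 far above every other array.

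The effectors of inflammation held the 2 largest differences, of irg1l and mmp13a, and the widest spread between mutant pools. This group counted 12 raised probe sets of 11 genes. Role groups were assigned after the values had been seen and get no test. Transcripts of irg1l, which resembles the mammalian gene for the enzyme that makes itaconate in activated macrophages, had the largest difference of all. Their level was 1.74, 1.40 and 2.47 in the mutant pools and -0.576, -0.674 and 1.34 in the wild type pools, a difference of 1.84 (SE 0.513). Wild type 3 stood far above the other wild type arrays and just below mutant 2. Without wild type 3 the difference was 2.49, and without both arrays numbered 3 it was 2.19.

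The matrix metalloproteinases mmp13a and mmp9, which cut collagen and other matrix proteins in inflamed and healing tissue, were higher in all mutant arrays, and by far the most in mutant 3. For mmp13a the levels were 1.26, 0.917 and 2.76 in the mutant pools against -0.150, -0.0445 and 0.0997 in the wild type pools, a difference of 1.68 (SE 0.402). For mmp9 they were 0.854, 0.5005 and 2.45 against -0.262, 0.0469 and 0.0606, a difference of 1.32 (SE 0.429). Wild type arrays were close together for both genes. Without mutant 3 the differences were 1.12 for mmp13a and 0.729 for mmp9.

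Most other genes of the group followed the same order of mutant pools, but cd44a and ctss2.1 did not. The level of ptgs2a, an inducible enzyme of prostaglandin synthesis, was 0.375, 0.0740 and 0.992 in the mutant pools and -0.361, -0.465 and -0.378 in the wild type pools. The first probe set of steap4, a metalloreductase, was at 0.122, -0.120 and 1.14 in mutants and at -0.459, -0.443 and -0.610 in wild type. Mutant 3 was the highest and mutant 2 the lowest mutant array for both. The second steap4 probe set had a difference of 0.563.

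Some members depended on mutant 3 for most of their difference. The level of ncf1, a subunit of the phagocyte NADPH oxidase, was -0.380, -0.631 and 0.532 in the mutant pools and -0.795, -0.782 and -0.676 in the wild type pools, and its difference of 0.591 became 0.245 without mutant 3. For mfap4.5 the difference of 0.638 became 0.207, and for the second steap4 probe set it became 0.246. The adhesion receptor cd44a, the ubiquitin-like isg15 and the cysteine protease ctss2.1 kept differences of 0.537, 0.586 and 0.559 without that array. These names, and others below that lie outside the largest 25 differences and the gene lists, were chosen after their values were seen.

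In 11 of the 12 effector probe sets mutant 3 was the highest mutant array, and it exceeded the mean of mutants 1 and 2 by a median of 0.928. The median difference of the group was 0.715, and 0.548 without mutant 3. In limma's test 3 of the 12 were called, and 8 with the replicate block, against 1.23% and 2.33% of all probe sets. The rule had used the same contrast, and of all 103 raised transcripts 76 and 95 were called. The 3 were cd44a, isg15 and ctss2.1. The largest differences did not pass limma's test without the block: adjusted p was 0.121 for irg1l, 0.0738 for mmp13a and 0.179 for mmp9.

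**Figure D2:**
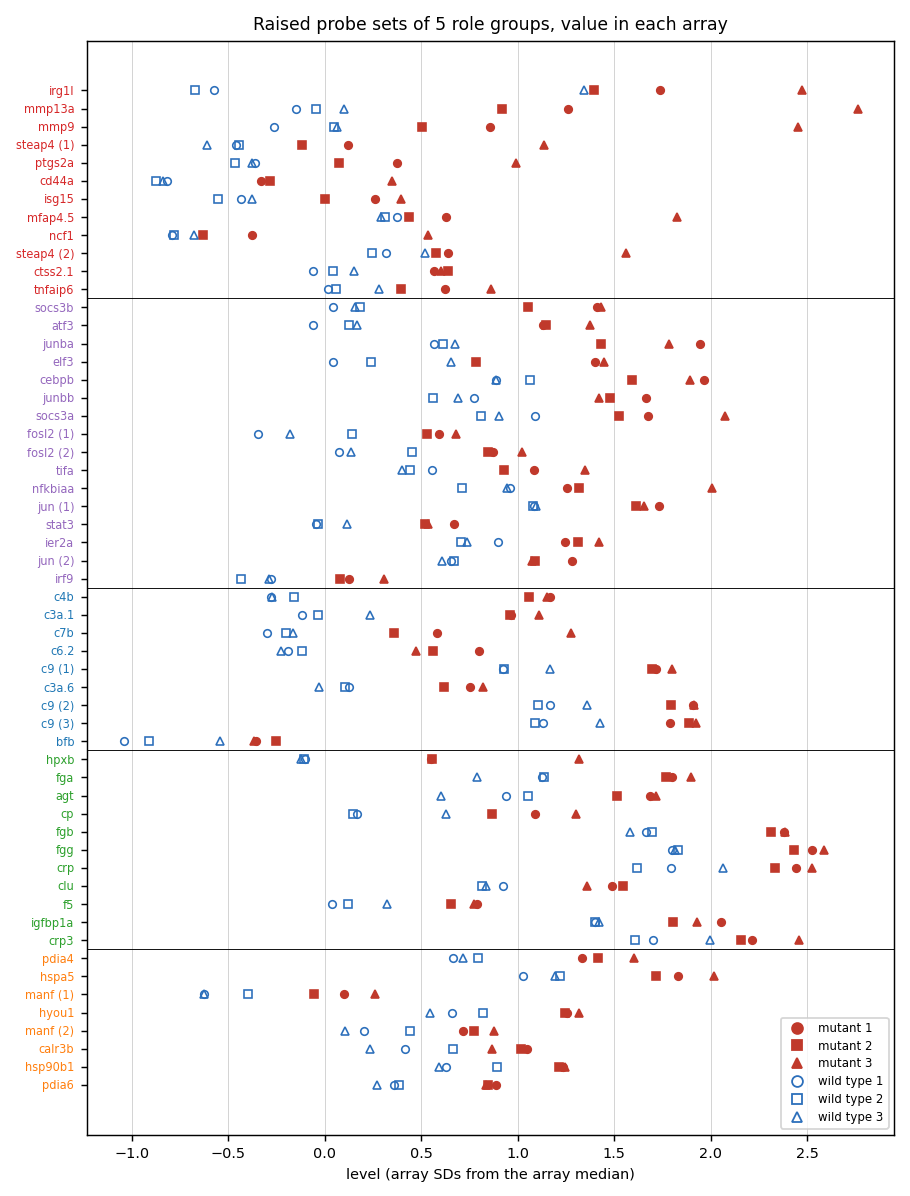
Each row is 1 raised probe set of 5 role groups, separated by lines and ordered by difference, and each symbol is its level in 1 array in array SDs. Filled red symbols are mutant pools and open blue symbols wild type pools, with shapes for the replicate numbers. Mutant 3, the filled triangle, lies far to the right for most of the first group, such as mmp13a at 2.76 against 1.26 and 0.917. In the lower groups it stands far from the other mutants for c7b, hpxb and nfkbiaa.

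Feedback inhibitors, signalling proteins and transcription factors made up 16 raised probe sets of 14 genes. Here the mutant pools lay closer together. The SOCS proteins block cytokine receptors that signal through JAK and STAT, and both zebrafish copies of socs3 were raised. The level of socs3b was 1.41, 1.05 and 1.43 in the mutant pools and 0.0442, 0.184 and 0.154 in the wild type pools, a difference of 1.17 (SE 0.0997). For socs3a it was 1.67, 1.52 and 2.07 against 1.09, 0.810 and 0.903, a difference of 0.823 (SE 0.134).

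Among transcription factors, atf3, a stress-induced member of the ATF family, was at 1.13, 1.14 and 1.37 in the mutant pools and at -0.0600, 0.123 and 0.166 in the wild type pools, a difference of 1.14 (SE 0.0843). The AP-1 subunit junba was at 1.94, 1.43 and 1.79 against 0.564, 0.611 and 0.673, a difference of 1.103 (SE 0.116). For its paralogue junbb the levels were 1.66, 1.48 and 1.42 against 0.775, 0.561 and 0.688. Raised AP-1 subunits also included 2 probe sets of jun, at differences of 0.579 and 0.506, and 2 of fosl2, at 0.727 and 0.691. A further fosl2 probe set outside the rule had a difference of 0.430, with groups that did not overlap.

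The level of cebpb, a leucine zipper factor that activates acute phase genes in mammalian liver, was 1.96, 1.59 and 1.89 in the mutant pools and 0.886, 1.06 and 0.888 in the wild type pools. The epithelial ETS factor elf3 was at 1.40, 0.785 and 1.45 against 0.0407, 0.239 and 0.651, so that mutant 2 and wild type 3 came close. The remaining members were stat3 (difference 0.563), the immediate early gene ier2a (0.544), irf9, the adaptor tifa (0.655) and nfkbiaa, an inhibitor of NF-kB (0.653). The last depended on mutant 3, which was at 2.00 against 1.25 and 1.32 in the other mutants, and its difference was 0.413 without it. The median difference of the group was 0.709, and 0.651 without mutant 3.

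Complement contributed 9 raised probe sets of 7 genes, from the early components to the membrane attack complex. The early component c4b, which helps form the enzyme that cleaves C3, was the most evenly raised of the large differences. It was at 1.17, 1.06 and 1.15 in the mutant pools and at -0.280, -0.158 and -0.273 in the wild type pools, a difference of 1.36 (SE 0.0553). The central component c3a.1 was at 0.963, 0.957 and 1.11 against -0.118, -0.0341 and 0.236, a difference of 0.982 (SE 0.0924). Its second probe set, in the dimmest part of the wild type arrays at the 8.25th percentile on average, had a difference of 0.274 (limma adjusted p = 0.257).

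Genes of the membrane attack complex were raised as well. The level of c7b was 0.580, 0.360 and 1.27 in the mutant pools and -0.301, -0.202 and -0.168 in the wild type pools, with mutant 3 well above the others. For c6.2 it was 0.799, 0.558 and 0.470 against -0.189, -0.121 and -0.228, and here mutant 3 was the lowest mutant array. The 3 probe sets of c9, the component that forms the pore, had differences of 0.730, 0.660 and 0.651. They share a gene and are not independent.

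Another gene of the C3 family, c3a.6, had a difference of 0.663 and bfb, a factor B of the alternative pathway, one of 0.506. Probes for families of similar copies, such as the C3 genes, can share signal, so values of single copies are uncertain. The 3 raised probe sets annotated to several genes were kept apart from all groups of named genes, complement included, and their largest difference was 1.04. All 9 complement probe sets kept a difference of at least 0.5 without mutant 3, from 0.528 to 1.35. In limma's test 8 of the 9 were called, and all 9 with the replicate block, against 1.23% and 2.33% of all probe sets. The rule had used the same contrast.

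Other proteins secreted into plasma made up 11 raised probe sets of 11 genes. They were brighter than the other groups, at a median percentile of 85.9 in wild type arrays. The 3 chains of fibrinogen, which forms the clot, had similar differences. The alpha chain gene fga was at 1.80, 1.77 and 1.90 in the mutant pools and at 1.12, 1.13 and 0.789 in the wild type pools, a difference of 0.806 (SE 0.0939). The beta chain gene fgb was at 2.38, 2.31 and 2.38 against 1.66, 1.70 and 1.58, a difference of 0.711 (SE 0.0505). The gamma chain gene fgg was at 2.52, 2.43 and 2.58 against 1.80, 1.83 and 1.81, a difference of 0.700 (SE 0.0523).

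The spread within groups was small against the gap between them for fgb and fgg. For fga wild type 3 lay below the other wild type arrays, with an SD of 0.196 in that group and a gap of 0.632 between the groups. The heme-binding protein gene hpxb was at 0.552, 0.553 and 1.32 in the mutant pools and at -0.104, -0.109 and -0.125 in the wild type pools, with mutant 3 apart. The copper protein ceruloplasmin, cp, was at 1.09, 0.865 and 1.30 against 0.169, 0.144 and 0.626, so that wild type 3 was the highest of its group. Angiotensinogen, agt, was at 1.68, 1.51 and 1.71 against 0.940, 1.05 and 0.5997, and here wild type 3 was the lowest.

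The pentraxin genes crp and crp3 had differences of 0.607 and 0.508, the extracellular chaperone clu one of 0.606 and the clotting factor f5 one of 0.580. The growth factor binding protein igfbp1a had a difference of 0.523, and its second probe set lay just below the rule at 0.4981. Without mutant 3 the difference remained at 0.5 or more for 10 of the 11, crp3 being the exception at 0.417.

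On a list of hepatocyte markers, only probe sets raised by the rule passed limma's test. Of 18 genes listed, 15 were measured with 16 probe sets. The list held 5 raised probe sets, of c3a.1, fga, cp, fgb and fgg. These were also the 5 called higher, where 1.23% of all probe sets were, but they had been chosen by the same contrast. In limma's test 0 of the 16 were called lower, where 1.81% of all probe sets were, and 2 were lower at an unadjusted p under 0.05. Here and below, the share of all probe sets at that unadjusted level was not counted. Such counts therefore have no background to be read against. The median difference of the list was 0.0861. The fatty acid binding protein fabp10a had a difference of -0.0885 (SE 0.0663, limma adjusted p = 0.534), transferrin, tfa, one of -0.0427 (SE 0.0467, limma adjusted p = 0.674) and the apolipoprotein gene apoa2 one of -0.00141 (SE 0.0537, limma adjusted p = 0.992). These bright probe sets differed between the groups by less than 0.1 array SDs, but some other unraised ones differed by more. The 2 lower at an unadjusted p under 0.05 were ahsg1, at -0.258 (SE 0.068), and apobb.1, at -0.195 (SE 0.0574). Among those above 0 were the second c3a.1 probe set, at 0.274, hpxa, at 0.225 (SE 0.0983), and apoa1a, at 0.104 (SE 0.0595). Of the 16 differences 10 were above 0 and 6 below.

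**Figure D3:**
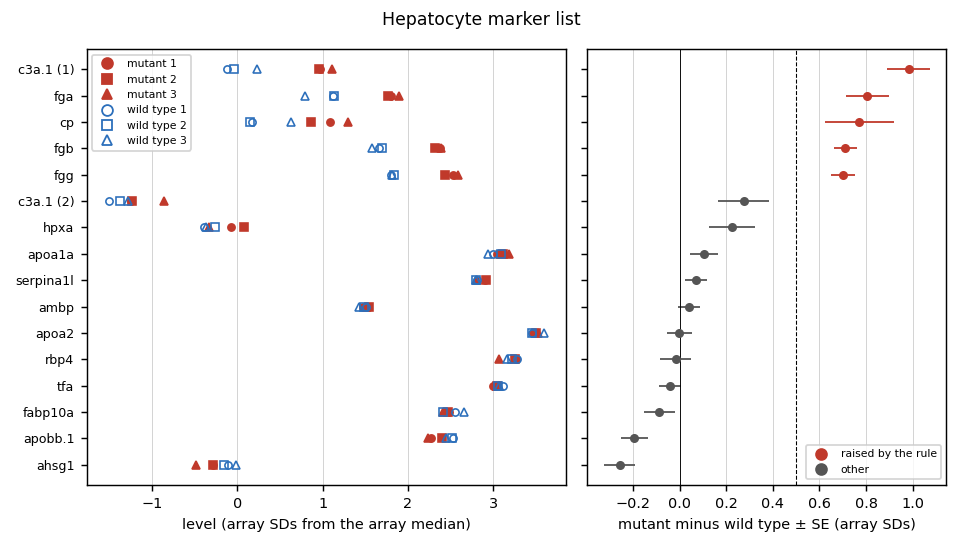
The left panel gives the level of each of the 16 hepatocyte marker probe sets in every array, in array SDs, with red filled symbols for mutant and blue open symbols for wild type pools. The right panel gives the mutant minus wild type difference with its SE from the fit, in red where raised by the rule, and the dashed line marks 0.5. The 5 raised probe sets stand apart at 0.700 to 0.982, and the next is at 0.274.

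Chaperones and folding enzymes of the endoplasmic reticulum made up 8 raised probe sets of 7 genes. Their differences were moderate and the mutant pools lay close together. The level of hspa5, the BiP chaperone that binds unfolded proteins and senses stress in this compartment, was 1.83, 1.72 and 2.01 in the mutant pools and 1.02, 1.22 and 1.19 in the wild type pools, a difference of 0.708 (SE 0.0849). The disulphide isomerase gene pdia4 was at 1.33, 1.41 and 1.60 against 0.662, 0.795 and 0.716, a difference of 0.724 (SE 0.0751). No array of one group came within 0.4 of the other group for either gene.

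The chaperone hyou1 was at 1.26, 1.24 and 1.32 in the mutant pools and at 0.657, 0.818 and 0.545 in the wild type pools. The chaperone hsp90b1, also called Grp94, was at 1.23, 1.21 and 1.25 against 0.627, 0.893 and 0.591. The disulphide isomerase pdia6 was at 0.886, 0.843 and 0.837 against 0.358, 0.382 and 0.272. In these genes the mutant arrays differed among themselves by less than the wild type arrays did.

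The secreted stress factor manf had 2 raised probe sets, with differences of 0.650 and 0.540. The calcium-binding chaperone calr3b was at 1.05, 1.01 and 0.867 in the mutant pools and at 0.414, 0.664 and 0.231 in the wild type pools. Mutant 3 exceeded the mean of mutants 1 and 2 by a median of 0.0993 in this group, against 0.928 in the inflammatory effectors. All 8 probe sets were called in limma's test, against 1.23% of all probe sets, though the rule had used the same contrast. Without mutant 3 the median difference was 0.574, against 0.569 with it, and without both arrays numbered 3 it was 0.503.

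**Figure D4:**
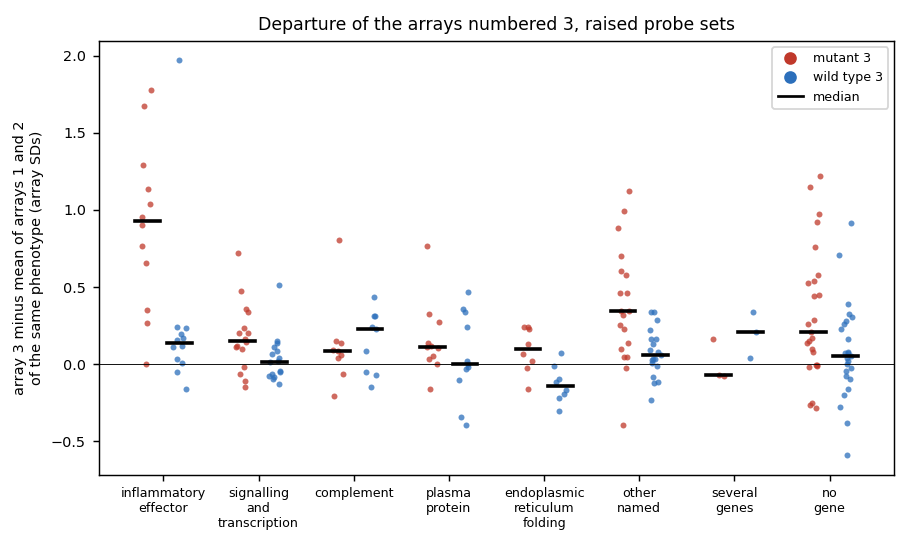
Each point is 1 raised probe set, and the vertical axis gives the level in the array numbered 3 minus the mean of arrays 1 and 2 of the same phenotype, in array SDs. Red points are mutant 3, blue points wild type 3 and black bars the medians of each role group. The medians for mutant 3 run from -0.0724 in the probe sets with several genes to 0.928 in the inflammatory effectors.

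A list of 35 genes for endoplasmic reticulum chaperones and the unfolded protein response gave 26 measured genes with 35 probe sets. Of these, 13 were called higher and 0 lower, against 1.23% and 1.81% of all probe sets. With the replicate block 15 were higher and 0 lower, against 2.33% and 2.36% of all probe sets. At an unadjusted p under 0.05 in limma's test, 25 were higher and 1 lower, but the share of all probe sets at that level was not counted. The 1 lower was a probe set of the stress sensor kinase eif2ak3 with a difference of -0.213 (limma adjusted p = 0.291). Other probe sets of eif2ak3 differed by -0.0653 and 0.186, the last of them among the 25 higher. The median difference of the list was 0.244, against -0.00703 over all probe sets, and 30 of 35 differences were above 0, where 47.1% of all probe sets were. The 10 raised probe sets of the list were the 8 above with atf3 and cebpb. They were chosen by the same contrast, and the list was drawn up with earlier results of these data known. Some of the 35 probe sets share a gene and are not independent. The counts and the median of the list therefore carry no support of their own.

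The 3 called probe sets of the list outside the rule were also chaperones. The co-chaperone dnajc3a had a difference of 0.344 (SE 0.0695, limma adjusted p = 0.0410), its paralogue dnajc3b one of 0.235 (SE 0.0467, limma adjusted p = 0.0385) and calnexin, canx, one of 0.244 (SE 0.0485, limma adjusted p = 0.0385). Of the transcription factors on the list, atf3 and cebpb passed, as given above, and xbp1, atf4b and atf4a did not. The difference was 0.138 for xbp1 (SE 0.0487, limma adjusted p = 0.215), 0.211 for atf4b (SE 0.0478, limma adjusted p = 0.0601) and -0.0507 for atf4a (SE 0.0787, limma adjusted p = 0.778). The array measures total transcript, so splicing of xbp1 was not seen. The 4 probe sets of ppp1r15a, which helps restart translation, had differences from 0.196 to 0.458. Of these 0 passed limma's test, 4 were higher at an unadjusted p under 0.05, and the 2 with the largest differences passed with the replicate block (limma adjusted p = 0.0130 and 0.0378).

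**Figure D5:**
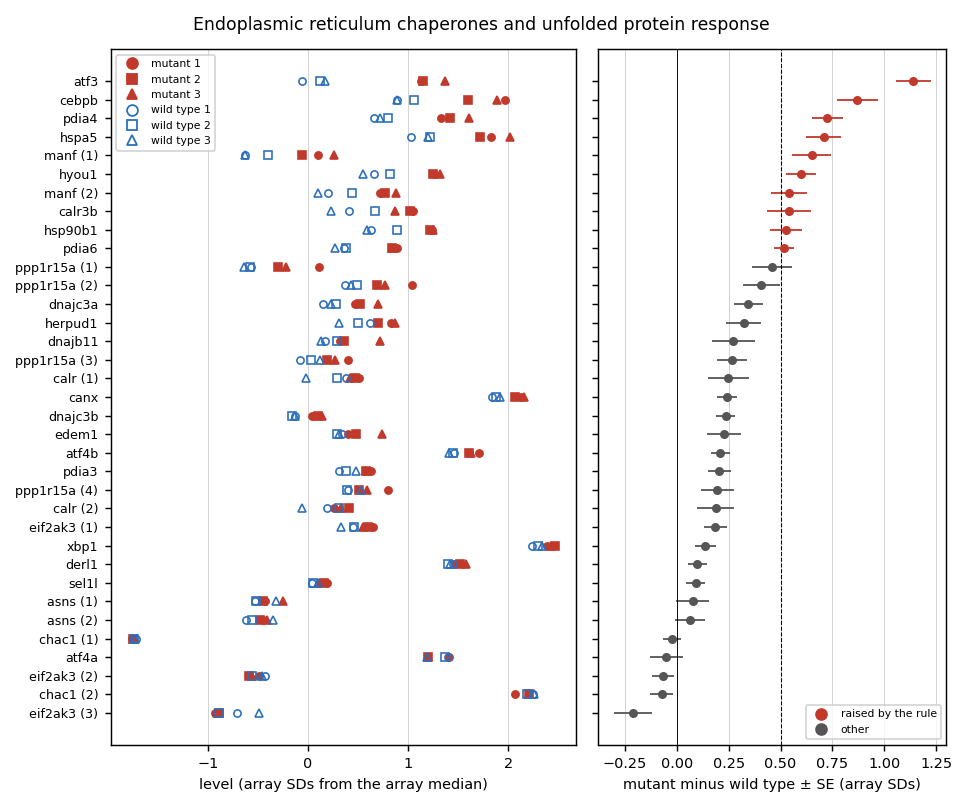
The left panel gives the level of each of the 35 listed probe sets in every array, in array SDs, with red filled symbols for mutant and blue open symbols for wild type pools. The right panel gives the mutant minus wild type difference with its SE from the fit, in red for the 10 raised by the rule, and the dashed line marks 0.5. Differences run from -0.213 for a probe set of eif2ak3, whose probe sets differ in direction, to 1.14 for atf3, and chaperones fill most of the upper part.

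A list of 12 genes for innate immunity gave 9 measured genes with 13 probe sets, of which 6 were raised. In limma's test 3 were called higher, of socs3b, socs3a and c3a.1, and 0 lower, against 1.23% and 1.81% of all probe sets. With the replicate block 6 were called higher, against 2.33% of all probe sets. The 6 raised were chosen by the same contrast, and the list was drawn up with earlier results of these data known. At an unadjusted p under 0.05 in limma's test, 8 were higher and 1, lyz, lower. The median difference was 0.823, against 0.256 without mutant 3 and 0.361 without both arrays numbered 3. The lysozyme and myeloperoxidase genes on this list were not raised by the rule. Lysozyme, lyz, was at 1.07, 1.24 and 0.942 in the mutant pools and at 1.31, 1.33 and 1.40 in the wild type pools (limma adjusted p = 0.124). The 4 probe sets of mpx, myeloperoxidase, differed by -0.184 to 0.209. The mpx probe set at 0.209 had groups that did not overlap and was among the 8 higher (limma adjusted p = 0.213). Another mpx probe set was very dim, at the 2.14th percentile on average in wild type arrays.

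The other lists held no raised transcript. Of all probe sets 1.23% were called higher and 1.81% lower. The share of all probe sets at an unadjusted p under 0.05 was not counted. For oxidative and heat stress, 7 of 12 listed genes were measured, and the listed hsp70 genes were not among them. The raised hsp70.3, given below, was not on that list. Of the list's 9 probe sets 1 was called higher, the thioredoxin gene txnb, with a difference of 0.448 (SE 0.0841, limma adjusted p = 0.0301), and 2 were with the replicate block. Among genes of the p53 response 1 of 7 was called higher, baxa, which promotes cell death, with a difference of 0.317 (SE 0.0533, limma adjusted p = 0.0177). That list's median difference was 0.130, and 6 of its 7 differences were above 0. At an unadjusted p under 0.05 in limma's test, 2 were higher and 0 lower. These were baxa and gadd45aa, the latter with a difference of 0.380 (limma adjusted p = 0.137). For fatty acid and triglyceride synthesis 0 of 17 probe sets were called higher and 1 lower in limma's test, with a median difference of -0.0885, and 1 higher and 2 lower with the replicate block. At an unadjusted p under 0.05, 1 was higher and 2 lower. In limma's test cholesterol synthesis had 0 of 12 higher, also at an unadjusted p under 0.05, and 1 lower. The cell cycle had 0 of 21 called in either direction in limma's test, and 0 higher and 2 lower at an unadjusted p under 0.05. In phosphoinositide and phospholipid metabolism the 1 called of 14 was the decrease of cdipt. At an unadjusted p under 0.05 in limma's test, 2 of that list were higher and 1, cdipt, lower.

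Most probe sets of intestine and photoreceptor markers fell in the same pools. On the intestine list 8 of 13 probe sets were called lower, where 1.81% of all probe sets were. The list's mean level per array was 1.14 to 1.35 in mutants and 1.94 to 2.05 in wild type. On the lens and retina list 9 of 10 were called lower, and its mean level was 0.138 to 0.657 in mutants, with mutant 3 the highest, and 2.01 to 2.20 in wild type. Its 8 photoreceptor probe sets, of gnat1, gnat2, opn1sw1, opn1mw1 and pde6ha, were all called, with differences from -2.45 to -1.78. Of its lens crystallin genes, cryaa had a difference of -0.265 (limma adjusted p = 0.0491) and crybb1 one of -0.141 (limma adjusted p = 0.314). Exocrine pancreas had 0 of 17 called in either direction in limma's test, 2 lower with the replicate block, where 2.36% of all probe sets were, and 0 higher and 3 lower at an unadjusted p under 0.05. Its mean level was 2.13 to 2.35 in mutants against 2.33 to 2.44 in wild type. The 14 skeletal muscle probe sets had 1 called lower, and 0 in limma's test with the replicate block. All 14 had differences below 0, and 3 were lower at an unadjusted p under 0.05. The part of these tissues in the raised transcripts was not tested.

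The remaining 19 raised probe sets with 1 gene had no shared role. The largest difference was 1.07, for si:ch73-335l21.4. The proglucagon gene gcga, a hormone gene of the endocrine pancreas, was at 0.953, 0.780 and 1.47 in the mutant pools and at 0.197, 0.311 and 0.241 in the wild type pools. Mutant 3 was again the highest, and the difference was 0.818, or 0.616 without it. The uncharacterised wu:fb63a08 went the other way among mutants, at 0.203, 0.270 and -0.156 against -0.651, -0.830 and -0.649, with mutant 3 the lowest. A second probe set of wu:fb63a08 had a difference of 0.479 and the other one of 0.0380.

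Several of these transcripts owed much to mutant 3. The differences of cbln11, of the cerebellin family, and of moxd1, a monooxygenase, were 0.777 and 0.762, and 0.445 and 0.388 without mutant 3. For glipr2l the difference of 0.794 became 0.499. That of inhbaa, a subunit of activin, was 0.534 and became 0.2995. By contrast hbegfa, an EGF receptor ligand, esm1, a product of endothelial cells, and slc4a2a, an anion exchanger, kept differences of 0.640, 0.528 and 0.608. Further probe sets of slc4a2a outside the rule had differences of 0.382 and 0.0569 on all arrays, the latter with overlapping groups. The polyamine enzyme odc1 had a difference of 0.759, and the heat shock gene hsp70.3, measured by a probe set that can share signal with its copies, one of 0.582.

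Among the 25 raised probe sets with no gene in the annotation, the largest difference was 1.59, and for that probe set mutant 3 exceeded the mean of mutants 1 and 2 by 1.22. The next of them was even across pools, at 1.26, 1.24 and 1.39 in the mutant pools and at -0.0561, 0.00982 and 0.0505 in the wild type pools. The 25 had a median difference of 0.657 and lay at a median percentile of 36.8 in wild type, below the named groups.

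Across all 103 raised transcripts, mutant 3 was the highest mutant array for 76, or 73.8%, and mutant 2 the lowest for 72, or 69.9%. Over all 15502 probe sets these shares were 37.5% and 25.8%. Mutant 3 exceeded both other mutants by 0.5 or more for 24 raised transcripts, out of 79 such probe sets on the whole array. The median level of the raised transcripts was 0.872, 0.785 and 1.12 in the mutant pools and 0.0362, 0.120 and 0.154 in the wild type pools. A high mutant 3 could help a transcript to reach 0.5, so these shares are tied in part to the rule.

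Leaving out mutant 3 moved the difference by over 1.5 times for 13 raised transcripts, 5 of them inflammatory effectors and 0 of them complement, plasma protein or endoplasmic reticulum folding genes. Leaving out any other single array did so for none. Without mutant 3, 79 of the 103 kept a difference of at least 0.5, and the median was 0.601. The departures of mutant 3 and wild type 3 from the other arrays of their group correlated at 0.272 across the 103 transcripts, which share the same arrays and are not independent. Over all probe sets this correlation was 0.367.

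Where a raised gene had further probe sets outside the rule, these all had differences above 0. There were 9 such probe sets of 7 genes, with differences from 0.0380 to 0.498. Every mutant array lay above every wild type array for 7 of the 9, against 11.3% of all probe sets. Their genes were chosen by the same contrast on the same arrays, so these values are not independent. Gene order in the RefSeq annotation placed c7b and c6.2 side by side with no protein-coding gene between them, fga and fgb with 1 gene between them, and c3a.1 and c3a.6 likewise. Of the probe sets on the array 94.1% had the ending that marks a design to a single transcript, and of the raised ones 91.3%.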

How the data were processed

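The deposited table gives 1 value per probe set and array. Per the submitters' processing notes, the authors used RMA (background correction, quantile normalization, probe summary). The deposited values are a score: every column has a median of 0 and an SD of 1, a scaling step not given in the sources used here. All 115 control rows were left out, and 15502 probe sets were fitted with limma 3.58.1 in R 4.3.3 on all 6 arrays, group as the only term, with Benjamini-Hochberg adjustment over all of them. The number of arrays limits the precision.

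Genes came from GEO's platform annotation, with symbols updated through Entrez IDs in the RefSeq table of assembly GRCz12tu; of 15502 probe sets 10795 had 1 symbol (10711 updated or matched), 135 several and 4572 none. Transcripts named by rule were the 25 largest differences with 1 symbol, raised genes of 13 lists, and 3 probe sets on each side of the threshold. Other raised transcripts were named after their values were seen. The members and lists were chosen with earlier results of these data known.

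Groups and replicate numbers came from sample titles. Deviations of same-numbered arrays correlated at 0.200, 0.166 and 0.367, all above 0.1, so the replicate block is given beside counts it moves. Some arrays of different number correlated as highly, mutant 1 with wild type 2 at 0.227 and mutant 2 with wild type 1 at 0.168, and no label states a shared clutch. Alternatives were other array scalings, a filter and a floor on dim signal, another variance prior, the block, other rule thresholds and leaving out arrays.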

Additional observations from a re-analysis of the deposited data

How the results depend on the processing

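The number of raised transcripts was 103. With the difference set at 0.4 or 0.6 in place of 0.5 it was 156 or 67, as a looser or stricter threshold must give. Leaving out 1 array gave 84 to 134, of which 56 to 81 passed limma's test, against 76, and 12 to 25 had a difference of at least 1, against 14. The highest count at 1, 25, came without mutant 2. Quantile normalizing again gave 110 raised transcripts, scaling by the interquartile range 99, leaving out the dimmest 25% of probe sets 98, and a floor at the 25th percentile 95. Calls among them were 95 with the replicate block, 75 with a trend and robust prior and 56 with the floor. Without both arrays numbered 3, an alternative chosen after seeing the data, 92 were raised and 76 of the 103 remained among them. All 103 differences stayed above 0 in every alternative that tested them. Groups that do not overlap fix this outcome when arrays are left out, and the block, the prior and the dim filter leave the differences unchanged. Such groups also make it likely under the other array scalings and the floor. For named probe sets, fga was at 0.654 without both arrays numbered 3, fgb at 0.634 and fgg at 0.615 with scaling by the interquartile range, and fgg at 0.759 with quantile normalizing, against 0.806, 0.711 and 0.700; the cause was not tested. The interquartile range of levels was 1.31 in every mutant array and 1.21 to 1.29 in the wild type arrays. Signal over background is unknown, which limits what dim probe sets can show.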
